A study of Mus musculus with 15 samples.

Results

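The comparison described here is that of STAT5 cKO with STAT5 fl/fl macrophages that received plain DMEM, so it gives the effect of STAT5 loss before any stimulus is added. It rests on 5 of the 15 RNA-seq libraries of the study: 2 of STAT5 fl/fl (replicates numbered 112 and 113) and 3 of STAT5 cKO (114, 115 and 116). They were chosen by their library names, and all 13005 genes with a CPM (counts scaled for library size) over 1 in at least 2 of the 15 libraries were tested. The cells were bone marrow-derived macrophages (BMDMs), that is, bone marrow cells of female BALB/c mice aged 6 weeks that had been matured into macrophages in culture. In STAT5 fl/fl mice the paired Stat5a and Stat5b genes are flanked by loxP sites, and both groups carry these alleles. STAT5 cKO mice carry Csf1r-iCre in addition, which drives the recombinase from the Csf1r promoter, active throughout the macrophage lineage and in other myeloid cells, so the deletion is not limited to the cultured cell. The labels do not say that the STAT5 fl/fl mice carried any Cre, so the presence of Cre and the loss of STAT5 cannot be told apart. A further STAT5 fl/fl replicate was left out at quality control before deposit. The remaining libraries carry the same 5 numbers and came after 2 h with 20 ng/mL recombinant mouse GM-CSF (rmGM-CSF) or with medium conditioned by 4T1 mouse mammary tumor cells (4T1 CM), against 2 h in serum-free DMEM for the libraries described here. Whether a number stands for 1 replicate is not stated in the labels. The p-values rest on the spread within all 6 groups of genotype and medium, shared in part over genes. They do not measure the spread of the 5 DMEM libraries alone.

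STAT5A and STAT5B are near-identical transcription factors that wait in the cytoplasm until a cytokine receptor, acting through a Janus kinase (JAK), phosphorylates them. They then pair, enter the nucleus and bind palindromic DNA motifs of the form TTCNNNGAA. In macrophages and their precursors the best known activator is GM-CSF, with IL-3, IL-5 and growth hormone acting on other cells through the same factors, and the feedback inhibitor Cish is the textbook target.

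Stat5a and Stat5b were lost almost completely from the STAT5 cKO libraries. Stat5b (chr11:100780731-100850724, GRCm38) was at 65.6 and 69.8 CPM in the STAT5 fl/fl libraries and 0.0460, 0 and 0.0824 CPM in the STAT5 cKO libraries. Stat5a (chr11:100859351-100885169) was at 29 and 30.3 CPM in the STAT5 fl/fl libraries and 0.0920, 0.0871 and 0 CPM in the STAT5 cKO libraries. No STAT5 cKO library held more than 2 counts of either gene. Set against a floor of 3 counts per library, Stat5b was at least 491-fold lower and Stat5a at least 215-fold lower, with edgeR quasi-likelihood adjusted p-values of 8.1e-20 and 2.6e-17. None of the 21 tested genes listed as their neighbours on chromosome 11 was called, with 5 at an unadjusted p under 0.05 and 0 called by DESeq2 or by limma.

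Counting Stat5a and Stat5b, 324 genes differed between the genotypes in DMEM at an edgeR adjusted p under 0.01, which is 2.49% of those tested. Of these, 122 (0.938%) were higher and 202 (1.55%) were lower in STAT5 cKO. Every count of called members of a list below is to be read beside these 2 shares. The lists were chosen with earlier results of these data known, so a share above these 2 is no independent support. The share called in either direction also rose with level, from 0.218% of genes with a mean below 1 CPM to 5.23% above 100 CPM. No list was matched for level. Counts at an unadjusted p under 0.05 are likewise to be read beside 2824 of all 13005 tested genes. Those called by DESeq2 are to be read beside its 540 calls, and those by limma beside its 335. Most of the differences were modest. The median size among called genes was 0.56 on the log2 scale, and 47 genes, Stat5a and Stat5b among them, passed 2-fold, 15 higher and 32 lower. For 323 of the 324 the 2 groups of libraries did not overlap, the exception being mt-Atp8. With such separation a fold change can hardly turn its sign when a library is left out or a setting changed. Signs that hold are thus no separate check. Over all tested genes the median log2 fold change was 0.00 and 49.7% were lower. Without regard to any test, all 3 STAT5 cKO libraries lay above both STAT5 fl/fl libraries for 19.4% of tested genes and below both for 20.5%.

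The small number of STAT5 fl/fl replicates limits these calls. Without replicate 112 there were 76 called genes, 66 of them among the 324, and without replicate 113 there were 47, 45 of them among the 324. Without replicates 114, 115 or 116 there were 243, 188 and 171. No called gene turned its sign when a replicate was left out or a setting was changed, and 33 genes, 5 higher and 28 lower, stayed called under all 13 alternatives that kept the same threshold. In what follows, "kept" marks genes of that set, and for most of the other called genes the highest adjusted p reached when 1 replicate number was left out is given, singly or as a range for a group.

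**Figure D1:**
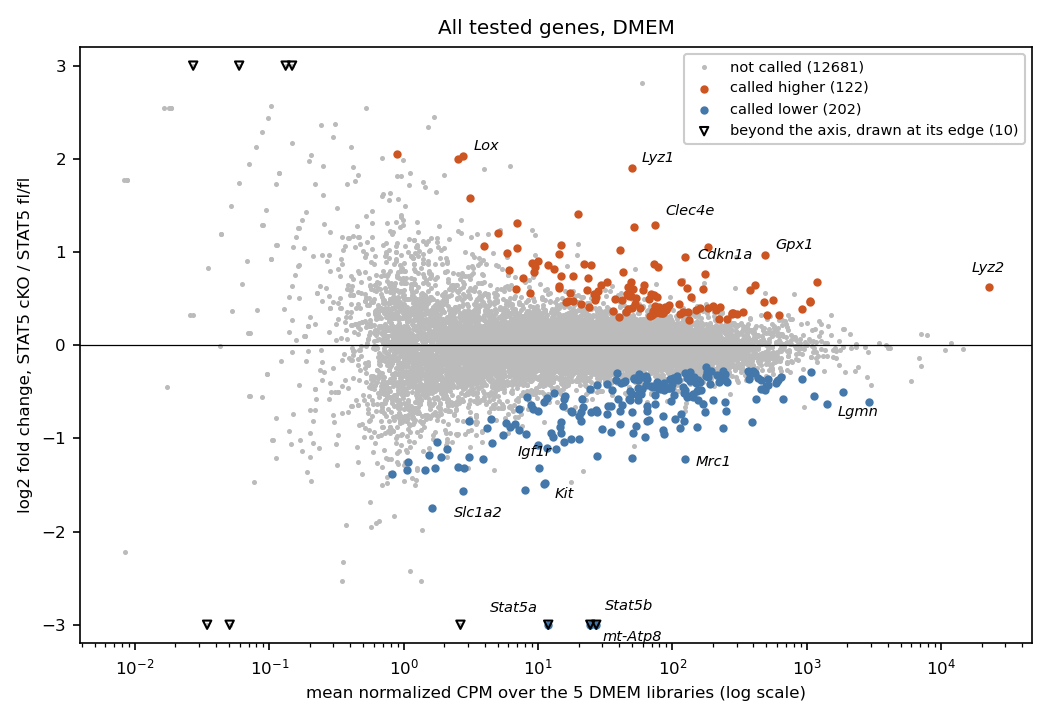
Log2 fold change of STAT5 cKO over STAT5 fl/fl with DMEM (y axis) against the mean level over the 5 libraries (x axis, normalized CPM, log scale), 1 point per tested gene. The 122 called higher and 202 called lower genes form a thin shell on both sides of 0, and 10 genes past 3 on the log2 scale, 4 higher and 6 lower, are drawn at the edge with open triangles, Stat5a, Stat5b and mt-Atp8 among them.

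The libraries held between 20181661 and 22824887 counts, within the range of all 15 (16016736 to 22883108), so depth was even across the groups. Of 16 macrophage markers all were tested. Csf1r, the M-CSF receptor, was at 3989 and 4192 CPM in the STAT5 fl/fl libraries and 3825, 4152 and 4052 CPM in the STAT5 cKO libraries (adjusted p = 0.86). Of that list Cx3cr1, Lyz1, Cd14 and Lyz2 were called higher (25%, beside 0.938% of all tested genes) and Mrc1 lower. Most markers of other lineages were at or near 0, but some were not: Csf3r of the neutrophil list was at 214 to 265 CPM, Ighm of the B cell list at 64.2 to 97.7, Bst2 of the dendritic cell list at 78.2 to 97.0 and Kdr of the endothelial list at 58.7 to 126. Of 14 neutrophil, 12 dendritic cell and 11 B cell markers, 3, 5 and 1 were tested and Irf4, lower, was the single call. Of 12 T and NK cell markers, 9 had no count in any of the 5 libraries, as did 7 of 11 mast cell and basophil markers, 9 of 13 erythroid and megakaryocyte markers and 4 of 9 endothelial markers. Summed over the list, fibroblast and stromal markers were at 10.3 and 10.6 CPM in STAT5 fl/fl and at 16.6 to 19.4 CPM in STAT5 cKO. In bulk RNA, fewer cells of a type and less of a transcript per cell cannot be told apart.

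Among the lower genes, those with the smallest adjusted p joined a growth factor receptor, a glutamate transporter, adaptor proteins and parts of the cytoskeleton. Igf1r, the receptor of insulin-like growth factor 1 (chr7:67952827-68233668), was at 24.8 and 26 CPM in the STAT5 fl/fl libraries and 13.5, 12.4 and 12 CPM in the STAT5 cKO libraries (log2 fold change -1.01 ± 0.082, adjusted p = 2.2e-06; errors of log2 fold changes are SE, n = 2 and 3 replicates). The STAT5 cKO libraries lay close together and below both STAT5 fl/fl libraries. Slc1a2, which encodes a high-affinity glutamate transporter (chr2:102658659-102790784), was at 14.2 and 12.4 CPM in the STAT5 fl/fl libraries and 4.42, 4.70 and 4.41 CPM in the STAT5 cKO libraries (log2 fold change -1.56 ± 0.14, adjusted p = 9.6e-06). Every STAT5 cKO library was below 5 CPM and every STAT5 fl/fl library above 12. Socs6, an adaptor of the suppressor of cytokine signaling family, was at 155 and 149 CPM in the STAT5 fl/fl libraries and 93.6, 90.1 and 88.5 CPM in the STAT5 cKO libraries (log2 fold change -0.74 ± 0.063, adjusted p = 3.2e-06). Again the groups were well apart, and all 3 genes were kept.

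Further kept genes on the lower side had roles in transport, adhesion and protein turnover. Lgmn, the lysosomal protease legumain, fell from a high level, with 1812 and 1773 CPM in the STAT5 fl/fl libraries and 1135, 1140 and 1207 CPM in the STAT5 cKO libraries (log2 fold change -0.63 ± 0.066, adjusted p = 3.1e-05). It was the only called gene of 41 tested on the lysosome list, whose median log2 fold change was -0.034. Kif3a, a subunit of the kinesin-2 motor, was at 227 and 233 against 132, 144 and 143 CPM in STAT5 fl/fl against STAT5 cKO (log2 fold change -0.72 ± 0.068, adjusted p = 1.3e-05). Fbxw7, the substrate receptor of an SCF ubiquitin ligase, was at 83.4 and 94.1 against 43.5, 44.2 and 47.2 CPM (log2 fold change -0.98 ± 0.095, adjusted p = 1.4e-05). The remaining kept genes of this rank lay between log2 fold changes of -1.19 and -0.81. They were Tmod1, which caps actin filaments (-1.19), Tns1, a focal adhesion protein (-0.89), Clmp, a cell adhesion molecule (-0.87), the calcium-binding S100a1 (-0.81) and Gm30329 (-0.82), which is known by its gene model name alone.

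Pkib and Rab15 belonged to the same rank, and of its 15 genes they were those found to hold the STAT5 palindrome in the 250 bases upstream of a listed start. Their upstream sequences are shown for that reason, from the RefSeq promoter table (GRCm38.p6), 5′ to 3′ on the gene's strand, with the match to TTCNNNGAA in capitals. That of Pkib is chr10:57631731-57631980 (plus strand) and that of Rab15 is chr12:76813857-76814106 (minus strand).
Pkib: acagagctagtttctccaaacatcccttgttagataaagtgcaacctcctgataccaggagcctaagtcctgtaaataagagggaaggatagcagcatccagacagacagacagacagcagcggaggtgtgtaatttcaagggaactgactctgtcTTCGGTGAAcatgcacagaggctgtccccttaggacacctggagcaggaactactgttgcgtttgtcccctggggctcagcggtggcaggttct
Rab15: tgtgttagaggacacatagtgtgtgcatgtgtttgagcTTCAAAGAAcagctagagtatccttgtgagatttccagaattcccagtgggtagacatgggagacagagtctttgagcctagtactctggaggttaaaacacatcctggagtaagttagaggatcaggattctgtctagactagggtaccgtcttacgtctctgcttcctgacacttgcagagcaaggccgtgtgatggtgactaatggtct
Pkib, an inhibitor of protein kinase A, was at 43.2 and 40.1 CPM in the STAT5 fl/fl libraries and 24.1, 22.6 and 20.5 CPM in the STAT5 cKO libraries (log2 fold change -0.90 ± 0.09, adjusted p = 1.9e-05). Rab15, a small GTPase of endosomal recycling, was at 16.5 and 20.1 CPM in the STAT5 fl/fl libraries and 6.39, 7.05 and 6.26 CPM in the STAT5 cKO libraries (log2 fold change -1.48 ± 0.16, adjusted p = 3.8e-05). The groups did not overlap for either, and both were kept. The motif reads the same on both strands. Of 9350 tested genes with an entry in that table, 674 (7.21%) held it in the 250 upstream bases, beside 8 of 143 called lower genes (5.59%) and 5 of 102 called higher genes (4.9%).

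The lower genes named for the size of their change alone were mostly at low levels. Arhgef5, a guanine nucleotide exchange factor, was at 2.32 and 3.25 against 1.01, 0.610 and 0.865 CPM (-1.75 ± 0.35). Col23a1, a transmembrane collagen, was at 5.19 and 4.05 against 1.33, 1.79 and 1.52 CPM (-1.57 ± 0.26), Ifi208 at 2.09 and 2.40 against 0.920, 1.05 and 0.700 CPM (-1.34 ± 0.25), and Gm38386 and D430020J02Rik, both without a known product, at -1.38 ± 0.27 and -1.34 ± 0.28. Kit, the receptor of stem cell factor, was the best measured of them, at 20.1 and 15.9 CPM in the STAT5 fl/fl libraries and 7.17, 7.49 and 4.66 CPM in the STAT5 cKO libraries (log2 fold change -1.49 ± 0.25, adjusted p = 0.0017). All other mast cell markers were below 1 CPM in every library. Left out in turn, 1 replicate or another raised the adjusted p of these 6 genes to between 0.036 and 0.12. DESeq2 gave 0.016 for Kit, 0.14 for Gm38386 and 0.026 for D430020J02Rik.

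Among the higher genes, 5 were kept: Selenow, Gpx1, Cdkn1a, Clec4e and Marveld1. Selenow, a small selenoprotein with a redox motif (chr7:15917208-15922402), was at 29 and 27 CPM in the STAT5 fl/fl libraries and 64.9, 69.1 and 68.8 CPM in the STAT5 cKO libraries (log2 fold change 1.27 ± 0.089, adjusted p = 3.4e-07). Gpx1, the cytosolic glutathione peroxidase and also a selenoprotein (chr9:108338903-108340343), was at 314 and 310.1 CPM in the STAT5 fl/fl libraries and 588, 608 and 639.8 CPM in the STAT5 cKO libraries (log2 fold change 0.97 ± 0.07, adjusted p = 4.4e-07). The spread within each group was a small part of the gap between them for both genes. Cdkn1a, the cyclin-dependent kinase inhibitor p21 (chr17:29090976-29100727), was at 79.5 and 78.8 CPM in the STAT5 fl/fl libraries and 147, 152 and 159 CPM in the STAT5 cKO libraries (log2 fold change 0.95 ± 0.093, adjusted p = 1.5e-05). Marveld1, a membrane protein, was at 36.1 and 34.7 against 50.4, 57.5 and 56.3 CPM in STAT5 fl/fl against STAT5 cKO (log2 fold change 0.63 ± 0.073, adjusted p = 8.0e-05). Clec4e is described with the lectins.

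Other genes with the smallest adjusted p on the higher side were a chemokine receptor, transporters and an ion channel. Cx3cr1, the fractalkine receptor that marks monocyte-derived and resident macrophages, was at 109.8 and 114 CPM in the STAT5 fl/fl libraries and 187, 251 and 262 CPM in the STAT5 cKO libraries (log2 fold change 1.06 ± 0.14, adjusted p = 2.1e-04). Replicate 114 stood lower than the other STAT5 cKO replicates, yet above both of STAT5 fl/fl. Slc2a6, a hexose transporter, was at 122 and 134 against 192, 185 and 206 CPM (0.60 ± 0.078), and Kcnn4, a calcium-activated potassium channel, at 113 and 108 against 149.9, 166 and 156 CPM (0.51 ± 0.07). Also of this rank were Esd, an esterase (0.62 ± 0.079), Atp8b2, a phospholipid flippase (0.53 ± 0.069), Tal2, a basic helix-loop-helix factor (0.98 ± 0.13), and Dnaaf5, a dynein assembly factor (0.64 ± 0.088). None of these 7 was kept, and without 1 replicate their highest adjusted p lay between 0.012 and 0.025.

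The higher genes named for the size of their change alone were mostly at low levels too, apart from Cav1 and Lyz1. Mgst2, a microsomal glutathione transferase, was at 0.455 and 0.169 against 0.966, 1.39 and 1.48 CPM (2.05 ± 0.44). Dach1, a transcriptional cofactor, was at 1.32 and 1.52 against 4.19, 3.70 and 4.90 CPM (1.58 ± 0.26), and Slc22a4, an ergothioneine transporter, at 3.05 and 2.57 against 5.75, 7.23 and 6.39 CPM (1.20 ± 0.23). These 3 were low in all libraries but apart by genotype. Cav1, the main protein of caveolae, was at 9.70 and 10.1 CPM in the STAT5 fl/fl libraries and 23.2, 32.7 and 22.8 CPM in the STAT5 cKO libraries (log2 fold change 1.40 ± 0.30, adjusted p = 0.0092). The lysozyme genes rose together, Lyz2 being named as a member of the macrophage marker list. Lyz1 was at 8.51 and 28.9 CPM in the STAT5 fl/fl libraries and 88.3, 53 and 69.8 CPM in the STAT5 cKO libraries (log2 fold change 1.90 ± 0.30, adjusted p = 0.001) and Lyz2, the lysozyme M that macrophages make in quantity, at 17090 and 17036 CPM in the STAT5 fl/fl libraries and 23365, 26893 and 28757 CPM in the STAT5 cKO libraries (log2 fold change 0.63 ± 0.12, adjusted p = 0.0053). Both STAT5 fl/fl replicates were below all of STAT5 cKO for each, but they differed between themselves by more than 3-fold for Lyz1. Mgst2 was not called by DESeq2, by the legacy test or in the 5 DMEM libraries alone (0.023). The sequences of the lysozyme pair are much alike, so reads may have been divided between them. Without 1 replicate the adjusted p of these 6 genes rose to between 0.01 and 0.2.

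**Figure D2:**
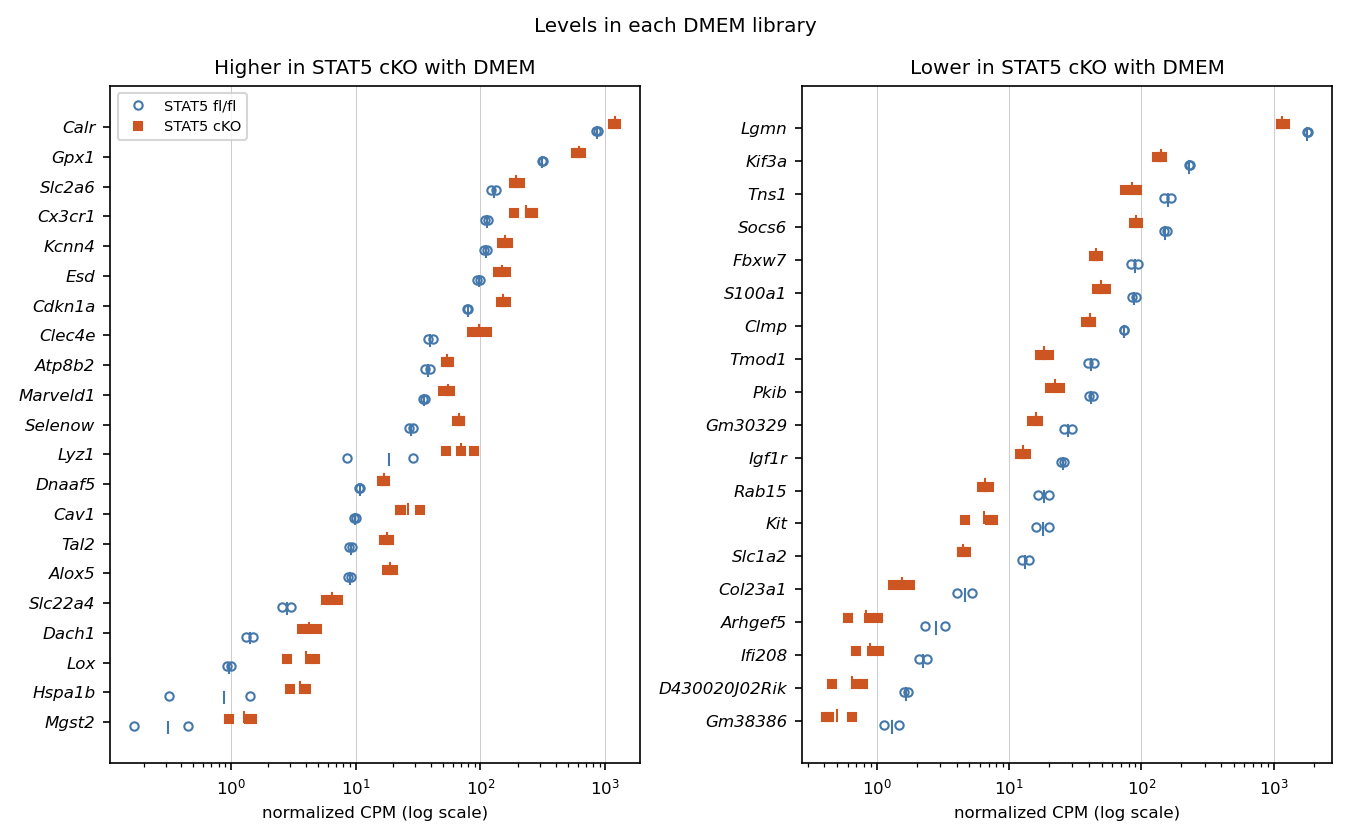
Normalized CPM (x axis, log scale) of the genes with the smallest adjusted p or the largest fold change in each direction, except Stat5a, Stat5b and 1 gene not reported here, with open circles for the 2 STAT5 fl/fl libraries, squares for the 3 STAT5 cKO libraries and a tick at each group mean. The groups do not overlap for any gene drawn, which the choice of genes required, and the spread within a group is widest for Lyz1, Hspa1b and Mgst2.

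Since Selenow and Gpx1 led the higher genes, the other genes of selenoproteins were looked up after these values were seen. Selenoproteins carry selenocysteine, placed at a UGA codon, and most of them act in redox reactions or in protein folding. Of 20 tested, 5 were called higher (25%, beside 0.938% of all tested genes) and 1 lower, and the median log2 fold change was 0.069. The 5 include Selenow and Gpx1, which prompted the list, so this share is no separate support. Selenoh, a nuclear selenoprotein, was at 3.69 and 3.71 CPM in the STAT5 fl/fl libraries and 7.22, 7.93 and 6.84 CPM in the STAT5 cKO libraries (log2 fold change 0.98 ± 0.15, adjusted p = 7.2e-04). Selenom and Selenof, both of the endoplasmic reticulum (ER), followed at log2 fold changes of 0.64 ± 0.11 and 0.40 ± 0.077. Gpx3, the secreted peroxidase, went the other way, at 142 and 139.5 against 80.02, 71.6 and 91.6 CPM (log2 fold change -0.79 ± 0.16, adjusted p = 0.0063). Gpx4, which protects membranes from lipid peroxidation, was at 113 and 117 against 112, 126 and 125 CPM, with an adjusted p of 0.51. Outside Selenow and Gpx1, these calls reached adjusted p-values of 0.02 to 0.097 without 1 replicate.

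Of 23 tested antioxidant genes of the NRF2 list, 3 were called, all higher (13%, beside 0.938% of all tested genes): Gpx1, Srxn1 and Gclm. Srxn1, which repairs oxidized peroxiredoxins, was at 73.7 and 79.3 against 94.4, 106 and 101 CPM (log2 fold change 0.40 ± 0.082, adjusted p = 0.0075). Gclm, the modifier subunit of glutamate-cysteine ligase, was at 19 and 21.4 against 25.8, 35.2 and 28 CPM (log2 fold change 0.55 ± 0.12, adjusted p = 0.0096). The groups did not overlap for either. The median over the list was 0.078. Without 1 replicate their adjusted p rose to 0.13 and 0.14, and DESeq2 called 5 genes of the list.

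The p53 target list had 3 called genes of 18 tested, all higher (16.7%, beside 0.938% of all tested genes), and a median log2 fold change of 0.27, with 16 of the 18 above 0. Besides Cdkn1a these were Ccng1, cyclin G1, at 113 and 109 CPM in the STAT5 fl/fl libraries and 146, 135 and 145 CPM in the STAT5 cKO libraries (log2 fold change 0.36 ± 0.061, adjusted p = 0.0019), and Phlda3, an inhibitor of AKT, at 4.64 and 3.92 CPM in the STAT5 fl/fl libraries and 8.32, 8.23 and 9.89 CPM in the STAT5 cKO libraries (log2 fold change 1.05 ± 0.20, adjusted p = 0.0048). All STAT5 cKO libraries were above all STAT5 fl/fl libraries for 13 of the 18 genes, beside 19.4% of all tested genes. Mdm2, the ligase that degrades p53, was at 216 and 189 against 258, 257 and 256 CPM (adjusted p = 0.07), and Fas, a death receptor, at 3.91 and 2.62 against 6.39, 5.66 and 5.64 CPM (adjusted p = 0.012), so neither passed the threshold. Of the 60 genes on the lists of S phase and of G2 and M phases, none was called by edgeR, DESeq2 or limma, with 4 at an unadjusted p under 0.05. Without 1 replicate Ccng1 and Phlda3 reached 0.068 and 0.075.

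Several chaperones were higher in STAT5 cKO. Of 22 tested, 7 were called higher (31.8%, beside 0.938% of all tested genes) and 0 lower, with a median of 0.25. Of the 7, 6 act in the ER, where they fold and sort secreted and membrane proteins. Hspa5, the ER Hsp70 known as BiP, was at 778 and 787 CPM in the STAT5 fl/fl libraries and 1031, 983 and 1063 CPM in the STAT5 cKO libraries (log2 fold change 0.39 ± 0.062, adjusted p = 0.0012). Its co-chaperone Sdf2l1 was at 54.2 and 54.8 CPM in the STAT5 fl/fl libraries and 78.4, 81 and 80.3 CPM in the STAT5 cKO libraries (log2 fold change 0.55 ± 0.081, adjusted p = 6.3e-04). The libraries of each genotype were tight and the groups apart for both. Manf, which holds BiP in its client complexes, was at 40.8 and 44.2 against 58.2, 57 and 65.8 CPM (0.51 ± 0.074), Hyou1, its nucleotide exchange factor, at 129.5 and 125 against 165, 164 and 167 CPM (0.38 ± 0.057), Pdia6, a disulfide isomerase, at 165 and 169 against 223, 212 and 238 CPM (0.43 ± 0.065), and Creld2 at 20.5 and 22.5 against 29.7, 31.7 and 30.7 CPM (0.51 ± 0.095). Calr and Pdia3, a lectin chaperone and the isomerase that works with it, were counted on the list of MHC class I assembly and were higher too, at 843 and 883 against 1163, 1179 and 1225 CPM (0.46 ± 0.062) and 528 and 555 against 659, 651 and 724 CPM (0.32 ± 0.066).

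Other genes of the unfolded protein response and of stress gave a mixed picture. Xbp1, a regulator of the unfolded protein response, was at 186 and 188 against 182, 192 and 205 CPM (adjusted p = 0.78), and Herpud1, a degradation factor of the ER membrane, at 48.7 and 47 against 42.8, 44.8 and 46.1 CPM (adjusted p = 0.67). Of 23 tested ATF4 stress genes, the single call was Cebpg, lower at -0.35 ± 0.074. A list of 8 genes that respond to handling of cells, all tested, had 2 called higher (25%), Fos and Hspa1b, with 7 at an unadjusted p under 0.05, 4 called by DESeq2 and a median of 0.31. Its part in the chaperone result was not tested. Hspa1b, an inducible cytosolic Hsp70, was the seventh called chaperone, at 0.319 and 1.43 CPM in the STAT5 fl/fl libraries and 3.86, 4.01 and 2.97 CPM in the STAT5 cKO libraries (log2 fold change 2.0 ± 0.40, adjusted p = 0.0063). Its near copy Hspa1a was at 0.364 and 0.759 against 2.02, 2.61 and 1.19 CPM (adjusted p = 0.018), and reads of this pair could have been divided between them. None of the chaperones was kept. Without 1 replicate their adjusted p rose to between 0.015 and 0.12, and that of Cebpg to 0.1.

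C-type lectin receptors, which bind carbohydrates and lipids of microbes and dead cells, had 4 of 16 tested genes called higher (25%, beside 0.938% of all tested genes) and 0 lower. Clec4e, or Mincle (chr6:123281789-123289870), was at 38.1 and 41.5 CPM in the STAT5 fl/fl libraries and 85.5, 94.1 and 112 CPM in the STAT5 cKO libraries (log2 fold change 1.29 ± 0.13, adjusted p = 1.5e-05) and was kept. Clec5a, a receptor that signals through DAP12, was at 26.6 and 24 CPM in the STAT5 fl/fl libraries and 43.6, 51.4 and 59.5 CPM in the STAT5 cKO libraries (log2 fold change 1.03 ± 0.15, adjusted p = 6.9e-04). Replicate 116 was the highest of STAT5 cKO for both genes. Clec4d, the partner of Mincle, was at 307 and 306 against 418, 468 and 552 CPM (0.65 ± 0.093) and Clec4a1 at 51.8 and 55.3 against 106, 87.1 and 93.2 CPM (0.83 ± 0.18). These 2 genes lie beside Clec4e on chromosome 6. Clec7a, the beta-glucan receptor Dectin-1, was at 449 and 414 against 392, 342 and 378 CPM (adjusted p = 0.1). Cd14, the co-receptor for lipopolysaccharide, was the single call among 23 Toll-like receptor and adaptor genes, at 801 and 904 against 1169, 1180 and 1209.7 CPM (0.48 ± 0.081). Without 1 replicate the adjusted p of Clec5a, Clec4d, Clec4a1 and Cd14 rose to between 0.033 and 0.12.

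Several receptors for antibody, apoptotic cells and glycoproteins were lower. Of 35 tested phagocytic, Fc and scavenger receptor genes, 7 were called lower (20%, beside 1.55% of all tested genes) and 0 higher, while 28 were not called, 13 lay above 0 and the median was -0.14. Mrc1, the mannose receptor (chr2:14229392-14332057), was at 180.3 and 196 CPM in the STAT5 fl/fl libraries and 109, 72.9 and 60.4 CPM in the STAT5 cKO libraries (log2 fold change -1.22 ± 0.21, adjusted p = 0.0018). The STAT5 cKO replicates were spread, but all were below those of STAT5 fl/fl. Fcgr2b, the inhibitory IgG receptor (chr1:170958617-170976547), was at 109.6 and 126 CPM in the STAT5 fl/fl libraries and 60.3, 63.8 and 64.4 CPM in the STAT5 cKO libraries (log2 fold change -0.91 ± 0.14, adjusted p = 6.9e-04) and was kept. Fcgr3, an activating IgG receptor, was at 292 and 333 against 187, 198 and 227 CPM (-0.61 ± 0.10), whereas Fcgr1, the high-affinity one, was at 116 and 129 against 106, 101 and 111 CPM (adjusted p = 0.24). Stab1, a scavenger receptor, was at 758 and 893 against 646, 553 and 463 CPM (-0.58 ± 0.11), and Gas6, the bridge between apoptotic cells and their receptors, at 539 and 634 against 419, 447 and 429 CPM (-0.44 ± 0.078). Fcrls and Cd300lf completed the 7, at -0.63 ± 0.11 and -0.58 ± 0.12. Other than for Fcgr2b, leaving out 1 replicate brought the adjusted p to between 0.033 and 0.14.

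Of the complement list, 2 of 16 tested genes were called, both lower (12.5%, beside 1.55% of all tested genes). Both are chains of C1q, which tags dying cells and immune complexes. C1qb was at 291 and 360.4 CPM in the STAT5 fl/fl libraries and 185, 163 and 181 CPM in the STAT5 cKO libraries (log2 fold change -0.89 ± 0.11, adjusted p = 2.0e-04) and was kept. C1qc was at 539 and 633 against 429, 423 and 411 CPM (log2 fold change -0.48 ± 0.10, adjusted p = 0.0063), with 0.17 without replicate 113. C1qa, the third chain, was at 182 and 277 CPM in the STAT5 fl/fl libraries and 141, 145 and 141 CPM in the STAT5 cKO libraries, and with its 2 STAT5 fl/fl libraries far apart its adjusted p was 0.017. The groups did not overlap for any of the 3 chains. C3, the central complement protein, was at 183 and 197 CPM in the STAT5 fl/fl libraries and 354, 372 and 374 CPM in the STAT5 cKO libraries. Its adjusted p was 0.18 in the model of all 15 libraries and 1.6e-05 in the 5 DMEM libraries alone. Cfp, properdin, was at 212 and 231 against 343, 324 and 353 CPM, with 0.013 and 0.00034 in the same fits.

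**Figure D3:**
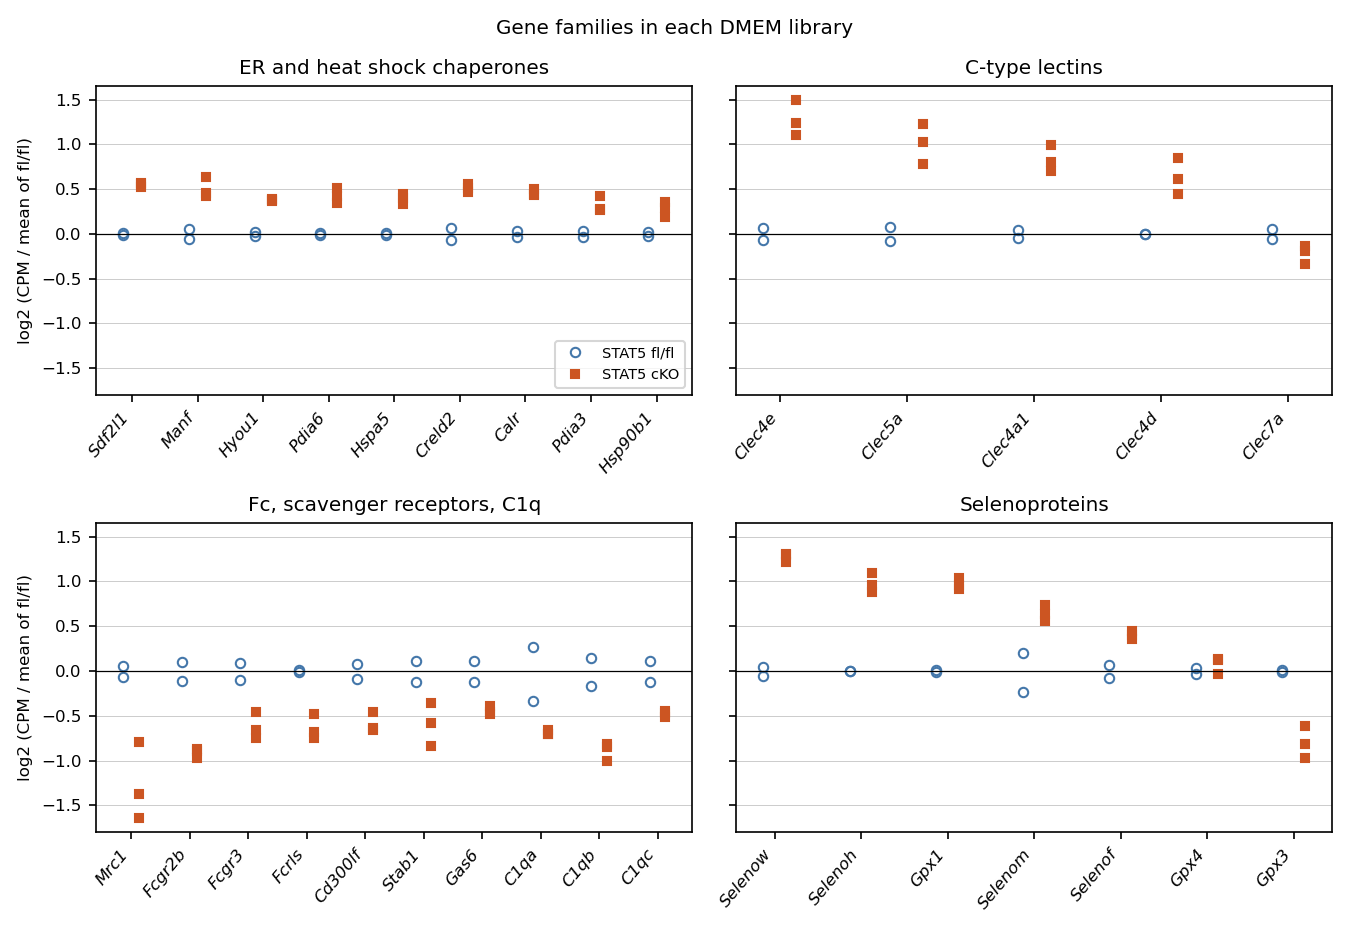
Level of each gene in each DMEM library as log2 of its CPM over the mean of the 2 STAT5 fl/fl libraries (y axis), for chaperones, C-type lectins, Fc and scavenger receptors with C1q, and selenoproteins, with open circles for STAT5 fl/fl and squares for STAT5 cKO. The genes drawn are mostly those called, which sets their side of 0. Chaperones and 4 of the 5 lectins drawn lie above 0 in all 3 STAT5 cKO libraries. The receptors and C1q chains drawn lie below, while Gpx4 straddles 0 and Gpx3 runs against the other selenoproteins drawn. Over the full lists, 13 of 35 tested receptor genes had log2 fold changes above 0 and 6 of 22 tested chaperones below 0.

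Iron and eicosanoid genes held calls in both directions. Slc40a1, ferroportin, the exporter of iron from macrophages (chr1:45908068-45926523), was at 162 and 169.7 CPM in the STAT5 fl/fl libraries and 95.9, 82.4 and 104 CPM in the STAT5 cKO libraries (log2 fold change -0.82 ± 0.10, adjusted p = 1.9e-04) and was kept. The importers of iron out of endosomes and phagosomes were higher, Slc11a1 (Nramp1) at 78.2 and 77 against 104, 103 and 108 CPM (log2 fold change 0.43 ± 0.068, adjusted p = 0.001) and Slc11a2 (DMT1) at 99.7 and 96.4 against 126, 121 and 123 CPM (log2 fold change 0.33 ± 0.067, adjusted p = 0.0061). No STAT5 cKO library overlapped a STAT5 fl/fl library for the 3 transporters. Alox5, the 5-lipoxygenase that starts leukotriene synthesis, was at 9.15 and 8.73 CPM in the STAT5 fl/fl libraries and 18.7, 17.9 and 19.9 CPM in the STAT5 cKO libraries (log2 fold change 1.08 ± 0.14, adjusted p = 3.0e-04). Its activating protein Alox5ap was at 139 and 149 against 138, 152 and 152 CPM (adjusted p = 0.87). On the prostaglandin side, Hpgds, a prostaglandin D synthase, was at 488 and 445 against 399.9, 370.5 and 366 CPM (log2 fold change -0.30 ± 0.064, adjusted p = 0.0089), and Hpgd, which inactivates prostaglandins, at 40.9 and 44.5 against 27.5, 29 and 24.7 CPM (log2 fold change -0.66 ± 0.10, adjusted p = 6.8e-04). In all, 1 of 21 tested genes of the prostaglandin and leukotriene list was called higher (4.76%) and 2 lower (9.52%). Of 18 iron and haem genes 2 were called in each direction (11.1% each), Hpgd being on both lists. Of all tested genes 0.938% were called higher and 1.55% lower. Except for Slc40a1, leaving out 1 replicate gave adjusted p-values of 0.023 to 0.13.

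The GM-CSF and STAT pathway itself was little changed apart from the deleted genes. Of 21 tested cytokine receptor genes that signal through JAKs, 1 was called: Il6ra, the IL-6 receptor, at 189.6 and 202 CPM in the STAT5 fl/fl libraries and 163, 170.1 and 166 CPM in the STAT5 cKO libraries (log2 fold change -0.24 ± 0.051, adjusted p = 0.0097). It was the smallest change among called genes and was lost under 6 of the alternatives that kept all replicates, and it reached 0.19 without replicate 113. Csf2ra, the GM-CSF receptor alpha chain, was at 205 and 192 against 234, 212 and 194 CPM (adjusted p = 0.54), and the shared beta chain Csf2rb at 618 and 617 against 559, 584 and 623 CPM (adjusted p = 0.64). The groups overlapped for both. None of the 9 other STAT and JAK genes was called by edgeR, with 1 at an unadjusted p under 0.05 and 1 called by DESeq2, Stat6. Stat6, the factor of IL-4 signaling, was at 297 and 288 against 345, 345 and 334 CPM (log2 fold change 0.22 ± 0.057, adjusted p = 0.025; 0.0031 by DESeq2).

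Of 16 tested STAT5 target genes, 13 passed 1 CPM in at least 2 of the 5 DMEM libraries, and Cdkn1a, higher, was the single call. Cish was at 0.273 and 0.0844 CPM in the STAT5 fl/fl libraries and 0.184, 0.218 and 0.206 CPM in the STAT5 cKO libraries (adjusted p = 0.88), a level at or near the floor in both genotypes. Bcl6, a transcriptional repressor that STAT5 is known to hold down, was at 139 and 153 CPM in the STAT5 fl/fl libraries and 153, 158 and 144 CPM in the STAT5 cKO libraries (log2 fold change 0.049 ± 0.065, adjusted p = 0.72). Pim1, a survival kinase, was at 48.1 and 41.1 against 53.1, 50.3 and 49.8 CPM (adjusted p = 0.32). None of these 3 passed the test with 2 and 3 replicates. Bcl2l1, which encodes the anti-apoptotic BCL-XL, was lower in all STAT5 cKO libraries, at 126 and 144 CPM in the STAT5 fl/fl libraries and 95.6, 103 and 114 CPM in the STAT5 cKO libraries (log2 fold change -0.38 ± 0.085, adjusted p = 0.013; 0.001 by DESeq2). Ccnd2, cyclin D2, was higher in all of them, at 4.32 and 3.21 CPM in the STAT5 fl/fl libraries and 8.09, 6.53 and 7.13 CPM in the STAT5 cKO libraries (log2 fold change 0.95 ± 0.24, adjusted p = 0.026; 0.00014 by DESeq2). DESeq2 thus called 3 genes of the list.

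**Figure D4:**
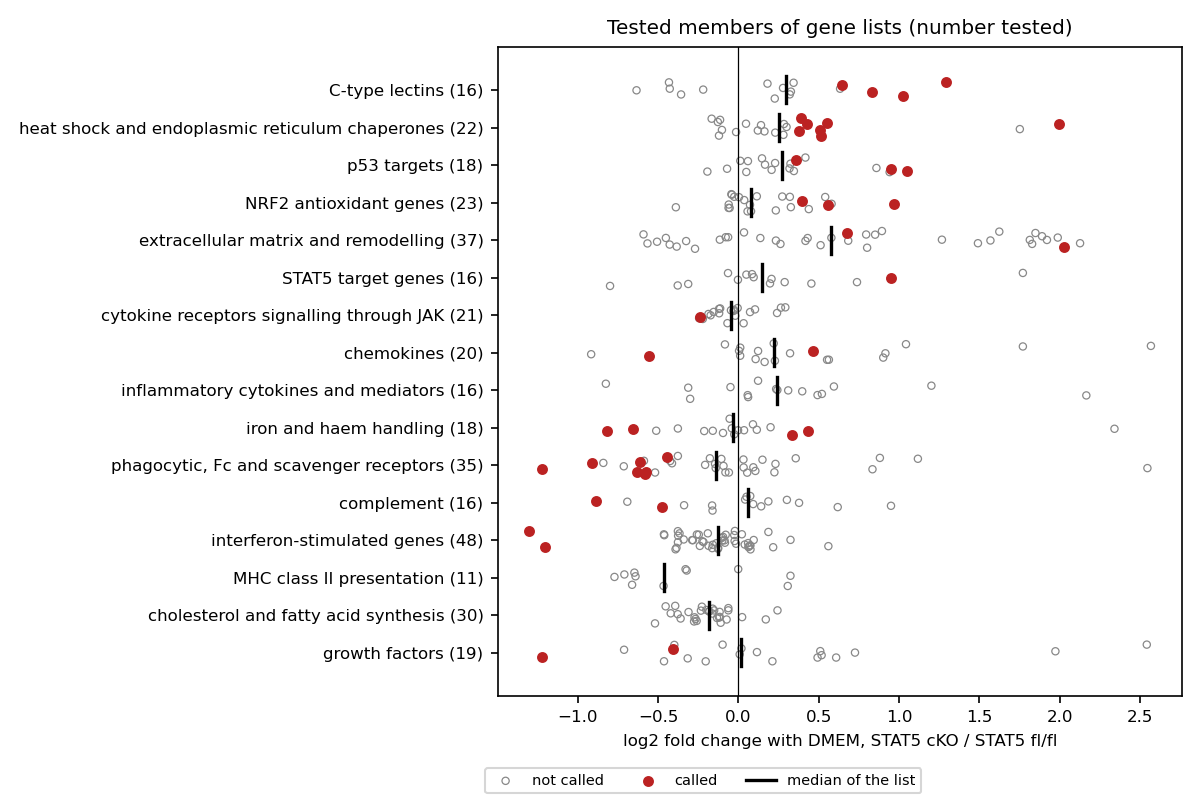
Log2 fold change with DMEM (x axis) of each tested member of 16 gene lists (rows, number tested in brackets), filled where called at an adjusted p under 0.01, with a bar at the list median. Called members lie on the right for lectins, chaperones, p53 and NRF2 targets, on the left for phagocytic receptors and complement, and MHC class II and cholesterol synthesis hold none although their medians lie below 0.

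Genes of MHC class II presentation had no edgeR call, and those of interferon response had 2. None of 11 tested MHC class II genes was called by edgeR, DESeq2 or limma, although 7 had an unadjusted p under 0.05 and the median log2 fold change was -0.47. Cd74, the invariant chain, was at 1450.4 and 995 CPM in the STAT5 fl/fl libraries and 774, 617 and 925 CPM in the STAT5 cKO libraries (log2 fold change -0.66 ± 0.20, adjusted p = 0.057), and Ciita, the activator of the class, at 66.1 and 40.8 CPM in the STAT5 fl/fl libraries and 36.9, 28.7 and 36.6 CPM in the STAT5 cKO libraries (log2 fold change -0.65 ± 0.21, adjusted p = 0.073). Both STAT5 fl/fl libraries were above all STAT5 cKO libraries for each, but replicate 112 was much higher than replicate 113. H2-Aa, a class II chain, overlapped between the groups, at 272 and 154 CPM in the STAT5 fl/fl libraries and 133, 103 and 173 CPM in the STAT5 cKO libraries (log2 fold change -0.64 ± 0.24, adjusted p = 0.13). Of 48 interferon-stimulated genes, 2 were called, both lower (4.17%, beside 1.55% of all tested genes) and both GTPases of low level. Iigp1 was at 3.55 and 4.39 against 1.84, 1.39 and 1.61 CPM (-1.30 ± 0.21) and Tgtp2 at 2.96 and 2.74 against 1.47, 0.740 and 1.48 CPM (-1.20 ± 0.23). The median of that list was -0.13, with 35 of 48 below 0. Without 1 replicate Iigp1 and Tgtp2 reached 0.053 and 0.072.

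Chemokines and costimulatory molecules each had calls both ways. Ccl9 was at 381 and 398 CPM in the STAT5 fl/fl libraries and 567, 507 and 537 CPM in the STAT5 cKO libraries (log2 fold change 0.46 ± 0.086, adjusted p = 0.0036) and Ccl6, its close relative, at 165 and 185 CPM in the STAT5 fl/fl libraries and 131, 98.9 and 127 CPM in the STAT5 cKO libraries (log2 fold change -0.56 ± 0.12, adjusted p = 0.0077), so these neighbours in one gene cluster moved apart. Ccl2, Ccl7 and Cxcl10 were below 6 CPM in every DMEM library, with adjusted p-values of 0.95, 0.63 and 0.87. None of 16 tested inflammatory cytokines and mediators was called by edgeR or limma, with 4 at an unadjusted p under 0.05 and 2 called by DESeq2. Icosl, the ligand of ICOS, was at 16.5 and 17 against 31.4, 29.2 and 30.6 CPM (0.86 ± 0.17) and Nectin2 at 10.9 and 10.7 against 15.6, 17.1 and 16.9 CPM (0.62 ± 0.11), both higher. Cd274, or PD-L1, was at 98.1 and 82.2 against 71.2, 67.5 and 66.7 CPM (-0.40 ± 0.078) and Slamf7 at 60.6 and 59.98 against 39, 34.8 and 46.4 CPM (-0.59 ± 0.11), both lower. Cd86 was at 25 and 23.7 against 18.8, 17.4 and 20.5 CPM (log2 fold change -0.36 ± 0.093, adjusted p = 0.025; 0.0082 by DESeq2). Of the NF-kB list, Traf1 (0.68 ± 0.10) and Tnip3 (0.59 ± 0.10), both induced by that factor, were higher, and of 25 immediate early genes Fos alone was called, at 29.95 and 30.1 against 53.7, 51.6 and 50.5 CPM (log2 fold change 0.79 ± 0.12, adjusted p = 6.9e-04), where DESeq2 called 6. Without 1 replicate the called genes of this group reached adjusted p-values of 0.018 to 0.16.

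Genes of the extracellular matrix and its remodelling lay mostly above 0. This held for 26 of 37 tested, and the median log2 fold change was 0.58. Of the 54 listed, 37 were tested and 32 passed 1 CPM in at least 2 of the 5 DMEM libraries. Some members, such as Col1a1, Col5a2 and Timp1, passed it in DMEM in STAT5 cKO libraries only. The low-count filter can favour such members, so the shared direction and the median are no independent result. At an unadjusted p under 0.05 there were 25 of the 37, beside 2824 of all 13005, but only Lox and Spp1 were called (5.41%, beside 0.938% higher over all tested genes), against 10 by DESeq2. Lox, which crosslinks collagen, was at 1.001 and 0.928 CPM in the STAT5 fl/fl libraries and 4.74, 4.35 and 2.84 CPM in the STAT5 cKO libraries (log2 fold change 2.03 ± 0.29, adjusted p = 6.3e-04). Spp1, osteopontin, a phosphoprotein that macrophages secrete in quantity, was at 858 and 897 CPM in the STAT5 fl/fl libraries and 1174, 1549.5 and 1475 CPM in the STAT5 cKO libraries (log2 fold change 0.67 ± 0.11, adjusted p = 0.0019). The groups did not overlap for either gene. Col1a1 was at 0.364 and 0.506 CPM in the STAT5 fl/fl libraries and 1.24, 1.35 and 2.14 CPM in the STAT5 cKO libraries (adjusted p = 0.12) and Col5a2 at 0.546 and 0.295 CPM in the STAT5 fl/fl libraries and 1.10, 1.22 and 1.40 CPM in the STAT5 cKO libraries (adjusted p = 0.084). Both rest on levels under 3 CPM and passed 1 CPM in DMEM in STAT5 cKO libraries only, which the low-count filter can favour. Among proteases and their inhibitors, Mmp9 was at 1.68 and 1.31 against 7.22, 4.83 and 4.66 CPM (log2 fold change 1.89 ± 0.43, adjusted p = 0.014), Mmp14 at 2.96 and 1.69 against 5.52, 10.1 and 10.4 CPM (log2 fold change 1.92 ± 0.69, adjusted p = 0.11) and Timp1 at 0.319 and 0.380 against 1.29, 1.09 and 1.36 CPM (log2 fold change 1.81 ± 0.42, adjusted p = 0.016). In the 5 DMEM libraries alone Mmp9 and Mmp14 passed, with 0.0018 and 0.0034.

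The tested markers of fibroblasts and stromal cells lay above 0 as well. All 5 of them, Col1a1, Col1a2, Pdgfrb, Acta2 and Bgn, had log2 fold changes between 0.51 and 1.85. None was called by edgeR, with 5 at an unadjusted p under 0.05 and 1 called by DESeq2. In DMEM, Col1a1, Acta2 and Bgn exceeded 1 CPM in STAT5 cKO libraries only. The low-count filter can thus favour members high in STAT5 cKO, so their shared direction is no independent result. Untested members are not in this count. The defining markers Col3a1, Dcn, Lum, Pdgfra and Thy1 were each below 0.4 CPM in every library. The part of such cells in the matrix result was not tested. Vcan, Lamc1, Vegfa, Egf, Ccn2 and Tnc had adjusted p-values of 0.53, 0.7, 0.5, 0.44, 0.066 and 0.31. Of 19 growth factors, 2 were called, both lower (10.5%, beside 1.55% of all tested genes). They were Angpt2, an antagonist of the vessel receptor TIE2, and Hgf, hepatocyte growth factor. Angpt2 was at 5.23 and 6.58 against 2.62, 2.83 and 2.18 CPM (-1.22 ± 0.17) and Hgf at 47.3 and 49.9 against 38.7, 36.3 and 34.9 CPM (-0.41 ± 0.084). Without 1 replicate Lox, Spp1, Angpt2 and Hgf reached 0.034, 0.045, 0.036 and 0.091. P4ha2, a collagen prolyl hydroxylase counted among hypoxia targets, was higher (log2 fold change 0.61 ± 0.13, adjusted p = 0.0079; 0.013 by DESeq2, 0.096 without replicate 112).

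Of 27 lineage transcription factors 2 were called, both lower (7.41%, beside 1.55% of all tested genes). Irf4, which directs alternative activation and dendritic cell fate, was at 21.8 and 22.9 CPM in the STAT5 fl/fl libraries and 11.1, 10.5 and 11.2 CPM in the STAT5 cKO libraries (log2 fold change -1.03 ± 0.11, adjusted p = 4.8e-05) and was kept. Tfec, a macrophage factor of the MITF family, was at 8.88 and 9.62 against 5.10, 4.92 and 5.36 CPM (-0.85 ± 0.14), with 0.033 without replicate 113. Spi1, the master factor PU.1, was at 330 and 350.4 against 341, 390 and 375 CPM (adjusted p = 0.31). Surface proteins named for other lineages were called lower too. Kdr, a receptor of VEGF, was at 126 and 117 CPM in the STAT5 fl/fl libraries and 58.7, 65.3 and 64.1 CPM in the STAT5 cKO libraries (log2 fold change -0.95 ± 0.11, adjusted p = 5.9e-05) and was kept, while of the other endothelial markers Tie1 was at 4.51 to 6.88 CPM, 4 had no count and none of the rest reached 1 CPM. Cd4 was at 10.01 and 10.5 against 7.36, 6.27 and 7.21 CPM (-0.56 ± 0.11; 0.096 without replicate 113), while of the other T and NK cell markers 9 had no count in any of the 5 libraries and Lck and Cd3e stayed below 1 CPM.

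The calls among transcripts of the ribosome and of mitochondria were all lower, but few for the ribosome. Of 85 ribosomal protein genes, 64 lay below 0, with a median of -0.11. At an unadjusted p under 0.05 there were 33 of the 85, beside 2824 of all 13005. In 32 all STAT5 cKO libraries were below both STAT5 fl/fl libraries (20.5% of all tested genes). DESeq2 called 9, beside 540 of all tested genes, and edgeR only 2 (2.35%, near the 1.55% called lower of all tested genes). The 2 were Rpl23a at -0.57 ± 0.079 and Rpl22 at -0.30 ± 0.062. Eef1a1, the elongation factor of translation, was at 3532 and 3769 CPM in the STAT5 fl/fl libraries and 2221, 2443 and 2511 CPM in the STAT5 cKO libraries (log2 fold change -0.61 ± 0.11, adjusted p = 0.0029), and Tpt1 at -0.29 ± 0.06. Both were looked at after their values were seen. Processed pseudogenes, copies that can share reads with their parents, had 12 of 712 called lower (1.69%, near the 1.55% of all tested genes) and 0 higher. Of 14 mitochondrially encoded genes, 12 lay below 0 and 3 were called lower (21.4%, beside 1.55% of all tested genes): mt-Nd1 at 2276 and 2230 against 1636, 1425 and 1699 CPM (-0.51 ± 0.09), mt-Nd2 at 1449 and 1356 against 1057, 827 and 991 CPM (-0.55 ± 0.11) and mt-Atp8. mt-Atp8 rests on 1 library, with 118 and 1.18 CPM in the STAT5 fl/fl libraries and 1.24, 0.566 and 1.11 CPM in the STAT5 cKO libraries. Without replicate 112 its log2 fold change was -0.28 (adjusted p = 0.85). Without 1 replicate the others reached 0.027 to 0.17.

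Some programs had no called gene in DMEM by edgeR. Of 30 tested genes of cholesterol and fatty acid synthesis, 27 lay below 0, with a median of -0.18, 4 at an unadjusted p under 0.05 and 0 called by DESeq2 or limma. In 15 of the 30 all STAT5 cKO libraries were below both STAT5 fl/fl libraries (20.5% of all tested genes), and edgeR on the 5 DMEM libraries alone called 2. Of 20 glycolysis genes, 16 lay above 0, with a median of 0.076, 5 at an unadjusted p under 0.05 and 0 called by either other tool. Lipid handling, integrins, the BCL2 family with PIM kinases, MAPK feedback, and TGF-beta and BMP signaling also held 0 edgeR calls, of 28, 16, 18, 11 and 19 tested genes. They had 12, 8, 4, 3 and 7 at an unadjusted p under 0.05 and 2, 1, 2, 0 and 1 called by DESeq2, and limma called 1 integrin. Of all 13005 tested genes, 2824 had an unadjusted p under 0.05 and DESeq2 called 540.

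The libraries with rmGM-CSF and 4T1 CM carry the same replicate numbers as those with DMEM, so the genotype differences in the 3 media come from separate libraries that may share animals. In those media 1275 and 1001 genes were called between the genotypes, 9.8% and 7.7% of those tested. With rmGM-CSF 3.57% were higher and 6.24% lower in STAT5 cKO. The shares were 4.13% and 3.57% for the tumor medium. Of the 324 genes called in DMEM, 184 (56.8%) were called in the same direction with rmGM-CSF, and 147 (45.4%) were so with the tumor medium. In all 3 media 129 genes (39.8%) were called in the same direction, 56 higher and 73 lower. The leading redox genes belonged to these: Selenow was at log2 fold changes of 1.27, 1.13 and 1.26 in these media, in the order DMEM, GM-CSF and tumor medium, and Gpx1 at 0.97, 0.91 and 0.82. Slc1a2 (-1.56, -1.43 and -1.46), Igf1r (-1.01, -0.48 and -0.52) and Clec4e (1.29, 0.82 and 1.02) did so too.

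Some of the basal differences changed in size or direction with the medium. The interaction test, which asks whether the genotype difference changes between media, was called for 404 genes (3.11%) with rmGM-CSF and 165 (1.27%) for the tumor medium. The change of the log2 fold change was upward for 0.884% and downward for 2.22% of tested genes with rmGM-CSF, and for 0.73% and 0.538% with 4T1 CM. Among the 324 genes it was called for 43 (13.3%) and 26 (8.02%), shares that are not independent of the choice of those genes, since the interaction uses the same DMEM libraries. Cdkn1a was called in both directions. Its log2 fold change was 0.95 ± 0.093 in DMEM, -0.86 ± 0.086 with rmGM-CSF and 0.36 ± 0.087 in the tumor medium (interaction with rmGM-CSF, adjusted p = 1.2e-07). It was 1 of 8 genes called in the opposite direction with rmGM-CSF. Uck2, a uridine kinase, went from 0.90 to -0.99 (interaction adjusted p = 4.0e-05). Rbpj, the DNA-binding partner of Notch, was higher in DMEM (0.37) and lower with both stimuli (-0.49 and -0.53). Rab7b, a lysosomal GTPase, showed the reverse (-0.32, 0.74 and 0.70). Dram1, Myo1e, Ccl9 and Ggta1 completed the 8 with rmGM-CSF, and 6 genes were called in the opposite direction with 4T1 CM: Rab7b, Rbpj, Engase, Lmnb1, Blnk and Dirc2. Without 1 replicate the DMEM adjusted p of these and of the 8, Cdkn1a apart, rose to between 0.034 and 0.17. The DMEM call of Dirc2 was kept under 3 of the 13 alternatives and that of Rab7b under 7.

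Some basal differences were found in DMEM and not with 1 or both of the stimuli. Of the 324 genes, 110 (34%) were called in neither other medium, but the interaction was called with both for only 5 of them, Chst10, Slc40a1, Cttnbp2nl, Cd93 and Vps39. Slc40a1 had log2 fold changes of -0.82 ± 0.10, 0.22 ± 0.12 and 0.019 ± 0.13. Kdr (-0.95 in DMEM, 0.13 with rmGM-CSF) and Angpt2 (-1.22 and 0.37) were not called with rmGM-CSF, with interaction adjusted p-values of 3.0e-04 and 0.0024. With 4T1 CM the interaction was called for neither of these genes. Other basal differences were small beside those under GM-CSF. Eps8, an actin regulator, went from -1.11 to -3.92 (interaction adjusted p = 6.7e-07), Cd274 from -0.40 to -2.17 (3.4e-08), Fcgr2b from -0.91 to -2.19 (4.2e-04) and Kcnj2, a potassium channel, from 0.40 to 1.96 (1.4e-07). Without 1 replicate the DMEM adjusted p of Eps8 and Kcnj2 rose to 0.033 and 0.058. Bcl6 and Cish, at 0.049 and 0.21 in DMEM, were at 4.02 and -5.99 with rmGM-CSF.

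**Figure D5:**
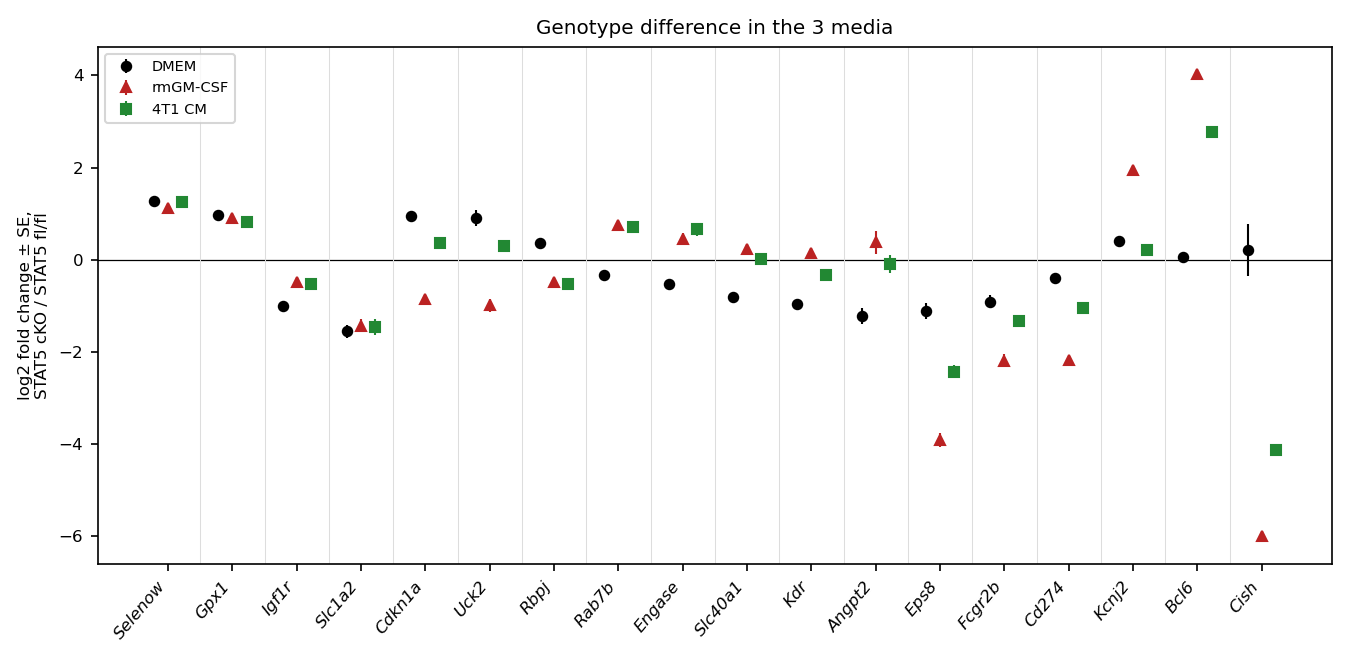
Log2 fold change of STAT5 cKO over STAT5 fl/fl with its SE (y axis) for 18 genes, with circles for DMEM, triangles for rmGM-CSF and squares for 4T1 CM. Selenow, Gpx1, Igf1r and Slc1a2 stay on one side of 0 in all media, while Cdkn1a, Uck2, Rbpj, Rab7b and Engase cross it and are called on both sides. Slc40a1, Kdr and Angpt2 cross it with rmGM-CSF but are not called there, and Bcl6 and Cish depart from 0 with the stimuli alone.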

How the data were processed

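RNA-seq libraries of bone marrow-derived macrophages were prepared with a stranded TruSeq kit. Per the study's methods and the submitters' processing notes, the authors trimmed reads with Trimmomatic 0.33, aligned them to GRCm38 with HISAT2 2.1.0 and counted them per gene with featureCounts 1.6.2. The deposited values are raw counts for 55385 genes, of which 55144 matched a symbol. Library totals ran from 16016736 to 22883108 counts.

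Counts were fitted with edgeR 4.0.16 in R 4.3.3 (RLE scaling, 6 groups of genotype and medium, 13005 genes with CPM over 1 in at least 2 libraries, quasi-likelihood F test, Benjamini-Hochberg adjusted p under 0.01). The SE is the log2 fold change divided by the square root of F. CPM are normalized. The fit was checked on simulated counts. Alternatives were TMM, other low-count filters, the likelihood ratio and legacy tests, DESeq2 1.42.0, the 5 DMEM libraries alone, a threshold of 0.05, leaving out each replicate number, and limma 3.58.1 with that number as a random block.

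The genes named are Stat5a and Stat5b, members of the gene lists, genes the study discusses and, per direction, the 15 smallest adjusted p and 10 largest changes among called genes whose libraries do not overlap. Of these, 1 gene is not reported here. The members and lists were chosen with earlier results of these data known. The selenoprotein list, Eef1a1, Tpt1, Eps8, Kcnj2 and the genes named for a change between media were chosen after their values were seen. Reads of near-identical copies (lysozymes, Hspa1a and Hspa1b, Csf2rb and Csf2rb2, ribosomal genes and pseudogenes) may be divided between them. Upstream sequences come from the RefSeq table of GRCm38.p6.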

Additional observations from a re-analysis of the deposited data

Results flagged for a closer look

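The genes below were marked because the genotype difference of a gene named in the report or called in both directions or in DMEM alone differed between DMEM and a stimulus by the interaction test (edgeR quasi-likelihood, adjusted p under 0.01). For each, the change of the log2 fold change (stimulus minus DMEM) is given first, followed by the log2 fold change in DMEM and with the stimulus.

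With rmGM-CSF the difference lay on the other side of 0 by over 0.2 for Cdkn1a (-1.81, from 0.95 to -0.86), Ccl9 (-0.93, from 0.46 to -0.47), Angpt2 (1.59, from -1.22 to 0.37), Slc11a2 (-0.59, from 0.33 to -0.26) and Slc40a1 (1.04, from -0.82 to 0.22). The same held for Rbpj (-0.86, from 0.37 to -0.49), Ggta1 (0.59, from -0.28 to 0.31), Dram1 (-0.87, from 0.42 to -0.46), Myo1e (-0.65, from 0.36 to -0.29) and Uck2 (-1.89, from 0.90 to -0.99). The same held for Rab7b (1.07, from -0.32 to 0.74), Engase (0.99, from -0.54 to 0.45) and Blnk (0.73, from -0.41 to 0.32). With rmGM-CSF it was smaller in size, or within 0.2 of 0 on the other side, for Clmp (0.66, from -0.87 to -0.21), Gm30329 (1.01, from -0.82 to 0.19), Nectin2 (-0.73, from 0.62 to -0.11), Kdr (1.09, from -0.95 to 0.13) and Cd93 (0.42, from -0.37 to 0.06). The same held for Chst10 (0.80, from -0.72 to 0.09), Cttnbp2nl (0.50, from -0.39 to 0.11) and Vps39 (0.49, from -0.37 to 0.13). With rmGM-CSF it was larger in the same direction for Ccl6 (-1.40, from -0.56 to -1.96), Fos (0.99, from 0.79 to 1.78), Cd274 (-1.77, from -0.40 to -2.17), Irf4 (-1.02, from -1.03 to -2.05) and Fcgr2b (-1.28, from -0.91 to -2.19). The same held for Fcgr3 (-0.75, from -0.61 to -1.37), Cd300lf (-1.37, from -0.58 to -1.95), Eps8 (-2.81, from -1.11 to -3.92) and Kcnj2 (1.55, from 0.40 to 1.96).

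With 4T1 CM the difference lay on the other side of 0 by over 0.2 for Hgf (0.64, from -0.41 to 0.23), Rbpj (-0.90, from 0.37 to -0.53), Rab7b (1.03, from -0.32 to 0.70), Engase (1.20, from -0.54 to 0.66) and Lmnb1 (1.20, from -0.69 to 0.51). The same held for Blnk (0.81, from -0.41 to 0.41) and Dirc2 (0.69, from -0.31 to 0.39). With 4T1 CM it was smaller in size, or within 0.2 of 0 on the other side, for Socs6 (0.62, from -0.74 to -0.13), Tns1 (0.84, from -0.89 to -0.05), Kcnn4 (-0.53, from 0.51 to -0.01), Manf (-0.54, from 0.51 to -0.03) and Slc40a1 (0.84, from -0.82 to 0.02). The same held for Cd93 (0.47, from -0.37 to 0.10), Chst10 (0.75, from -0.72 to 0.04), Cttnbp2nl (0.48, from -0.39 to 0.09) and Vps39 (0.44, from -0.37 to 0.08). With 4T1 CM it was larger in the same direction for Cd274 (-0.66, from -0.40 to -1.06) and Eps8 (-1.32, from -1.11 to -2.43).

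No explanation of these differences was tested. Groups of 2 or 3 libraries are too small for the search for single samples far from the rest.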

How the results depend on the processing

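The number of calls depended on the setting and their direction did not. For 323 of the 324 called genes the groups of libraries do not overlap, so these signs could hardly turn. No called gene turned its sign under any alternative, and of 2616 values of named genes under the alternatives 2201 stayed on their side of the threshold, 342 no longer passed and 73 newly passed. In DMEM, 608 genes (250 higher, 358 lower) were called by the likelihood ratio test, 540 (231 and 309) by DESeq2 and 910 (387 and 523) at an adjusted p under 0.05, against 324 (122 and 202). The interaction with 4T1 CM gave 332, 342 and 423 calls in these 3 settings, against 165, and that with rmGM-CSF gave 622 at an adjusted p under 0.05, against 404. Leaving out all 3 libraries of 1 replicate number gave 47 to 243 calls in DMEM (9 to 100 higher, 38 to 143 lower), 24 to 99 for the interaction with 4T1 CM and 134 to 271 for that with rmGM-CSF. The lone STAT5 fl/fl library of a medium was then assumed to vary like the other groups. TMM scaling gave 319, filterByExpr 314, the legacy test 306, no filter on low counts 453 and the 5 DMEM libraries alone 294, which shared 317, 312, 301, 307 and 234 genes with the 324.

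Equal replicate numbers across the media may mark the same mouse, which the labels do not state. The deviations of the 15 same-number pairs correlated weakly but all above 0, at 0.055 to 0.214, 4 of them at or under 0.1. With 2 STAT5 fl/fl libraries per group, deviations of 112 and 113 mirror each other, so their values are the same and counted double. The main model did not pair libraries by number, and these values do not settle whether it should. A hint toward pairing came from STAT5 cKO. In 16 of 18 cases the best correlated of the 3 libraries in another medium had the same number. With the replicate number as a random block in limma, 335 genes were called in DMEM (123 higher, 212 lower), 311 of them among the 324, and the interactions gave 194 (4T1 CM) and 420 (rmGM-CSF). Of the genes named, Cav1 (0.019), Hspa1b (0.012), Il6ra (0.0101), mt-Atp8 (0.36), Rbpj (0.011) and Uck2 (0.022) were not called in that fit, and Hsp90b1 (0.0095) and mt-Cytb (0.0094) were.

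With 2 STAT5 fl/fl replicates, an exact permutation test of a single gene could not go below p = 0.1, so all calls rest on a spread shared over genes and groups. Few genes of low level were called: 2 of 917 with a mean below 1 CPM, against 111 of 2123 above 100 CPM.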
